A study of Gossypium hirsutum with 18 samples.

Results

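In seedlings of upland cotton (Gossypium hirsutum), the response to the treatment labelled AS differed between root and leaf for many genes, and for some it ran in opposite directions. The comparison asked, gene by gene, whether the change in AS against CK seedlings was the same in root and in leaf. Of the 18 libraries of the series, 12 were used, 3 each from AS roots, CK roots, AS leaves and CK leaves. A gene was included when it reached at least 1 FPKM (fragments per kilobase of transcript, scaled to library size) in at least 3 of the 6 root libraries and in at least 3 of the 6 leaf libraries, which 33591 of the 70478 genes in the table did. A further 3918 genes passed in root only and 9569 in leaf only, and these were not compared between the organs.

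The seedlings were raised in soil and then moved into an alkaline solution. Both 125 mM NaHCO3 and NaOH brought to the same pH appear in the labels, for 12 h, but they do not say which of the codes AS and SAS stands for which solution, so the codes are kept here. CK seedlings had no treatment, and the solution and time of the CK seedlings are not given. The labels name no cultivar, do not say how many seedlings stand behind a library, and nothing shows whether separate plants stand behind the 3 libraries of a group. Every p-value therefore measures the spread between these libraries, which may be technical.

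In an alkaline solution the root surface is bathed directly, while leaves are reached through the water stream, through signals from the root and through changed supply of nutrients. High pH lowers the solubility of iron and phosphate and works against the proton gradient that drives uptake into root cells. Plants are known to answer salt and alkali with abscisic acid signalling, compatible solutes, reactive oxygen made and consumed at the cell wall, and chaperones. Cotton carries an A and a D copy of most genes, named Gh_A and Gh_D, and how reads shared by the copies were assigned is not stated by the labels or files, so values of like-named A and D copies are uncertain.

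Total counts ran between 46345805 and 66843791 per library. The organ labels fitted the defining transcripts: 214 genes of light harvesting, the photosystems and Rubisco, taken as leaf markers, held 0.0584 to 0.0881% of counts in AS roots and 0.0521 to 0.0679% in CK roots, against 2.25 to 2.62% in AS leaves and 2.45 to 2.97% in CK leaves. The 43 root markers held 0.0176 to 0.0299% in AS roots and 0.0331 to 0.0371% in CK roots, against 0.00729 to 0.00934% in AS leaves and 0.00801 to 0.00884% in CK leaves. In bulk libraries fewer cells of a type and less RNA per cell cannot be told apart.

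For each gene the difference is the log2 change of AS against CK in root minus the log2 change of AS against CK in leaf, so that a positive difference means a higher AS response in root. Of the 33591 genes, 13013 (38.7%) had a difference at an adjusted p under 0.05 by edgeR's quasi-likelihood test with Benjamini-Hochberg adjustment over all tested genes. The difference was positive for 6748 genes (20.1%) and negative for 6265 (18.7%). Within root, 17558 genes (52.3%) changed with AS, 8670 upward (25.8%) and 8888 downward (26.5%). Within leaf, 5143 genes (15.3%) changed, 2853 upward (8.49%) and 2290 downward (6.82%). The median absolute log2 change was 0.522 in root and 0.269 in leaf. Root libraries also varied more. The lowest correlation of a library with another of its group was 0.965 to 0.973 in root and 0.982 to 0.990 in leaf. The groups share a common estimate of spread, so root spread enters the leaf calls, which numbered 6855 without AS root library 3. How far spread adds to the sizes and counts in root and leaf was not tested. Of the 13013 genes, 823 were called in neither organ alone. Leaving out single libraries moved the leaf count by over 1.5 times, to 2076 without AS leaf library 1, 2357 without AS leaf library 3, 2545 without CK leaf library 1, 2449 without CK leaf library 2 and 3081 without CK leaf library 3.

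A gene was called opposite when it changed in both organs, with different signs, and the difference was called as well. There were 1061 such genes (3.16%), of which 562 (1.67%) rose in root and fell in leaf and 499 (1.49%) fell in root and rose in leaf. This count was 1665 without AS root library 3, 391 without AS leaf library 1, 447 without AS leaf library 3, 458 without CK leaf library 1, 476 without CK leaf library 2 and 620 without CK leaf library 3. Genes that changed in the same direction in both organs numbered 2089 (6.22%), 1239 upward and 850 downward, and for 544 of these (1.62% of all tested genes) the size of the change also differed between the organs, being larger in root for 473 and larger in leaf for 71. Across all tested genes the root and leaf changes were weakly related, with Pearson's r = 0.205 and Spearman's rho = 0.128, a description over genes of the same libraries and not over independent replicates. Among the opposite genes the changes exceeded 2-fold in both organs for 81 that rose in root and 169 that fell in root.

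These directions are relative to the typical gene, since TMM scaling centres each library on its bulk of genes. With library totals as the only scaling, the median of all genes shifted by -0.61 for the difference, by -0.48 in root and by 0.12 in leaf (log2), and 2793 genes then had a positive (8.31%) and 15473 a negative difference (46.1%), with a median of -0.62. In root 4303 rose and 17346 fell under that scaling, in leaf 3905 rose and 1110 fell, and 161 genes rose in root and fell in leaf while 1564 fell in root and rose in leaf. All 499 genes that fell in root and rose in leaf kept that class with library totals, but of the 562 that rose in root and fell in leaf 161 did.

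**Figure D1:**
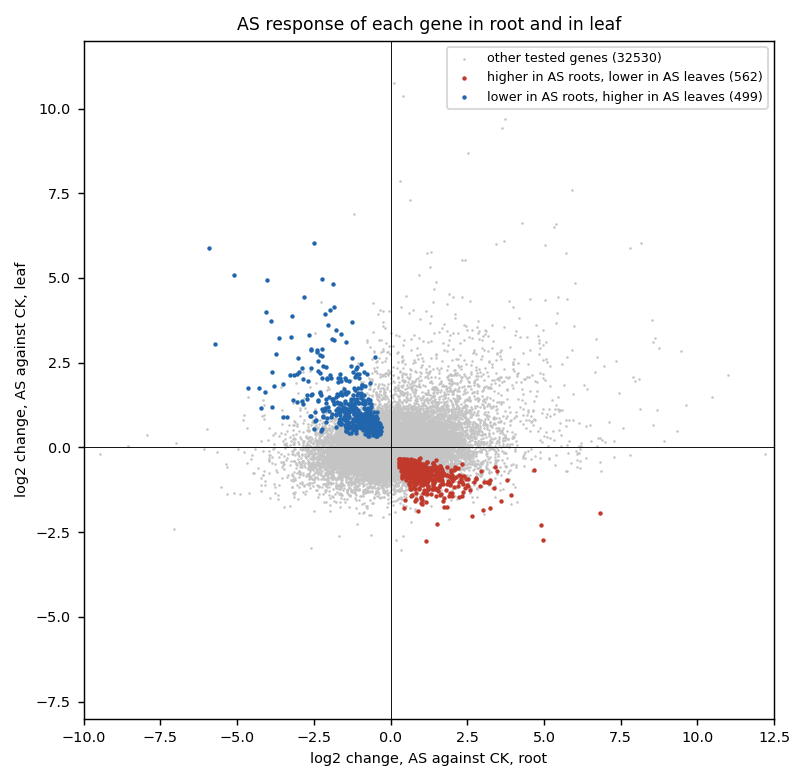
Log2 change of AS against CK in root (horizontal axis) and in leaf (vertical axis) for each of the 33591 tested genes. Red points are the 562 genes that rose in root and fell in leaf, blue points the 499 that fell in root and rose in leaf, and gray points the remaining tested genes; the cloud is wider along the root axis, with a median size of change of 0.522 against 0.269 in leaf.

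Genes are named for opposite responses where the libraries did not overlap in either organ and the change in the less responsive organ was largest, 10 for each direction. The lack of overlap given for these genes below was thus a condition of naming and adds no support. Among the 10 that rose in root and fell in leaf were 3 protein phosphatases, 2 kinases and an adaptor of protein breakdown. The largest difference among them belonged to Gh_D07G0549 (D07:6228042-6231727, minus strand), described as a BTB and TAZ domain protein, a class known in Arabidopsis as adaptors of cullin-based ubiquitin ligases. It stood at 92.2, 73.5 and 75.2 CPM in AS roots, against 2.01, 2.91 and 3.13 CPM in CK roots. Leaf levels of Gh_D07G0549 were 3.12, 8.94 and 2.80 CPM in AS leaves, against 23.9, 25.9 and 23.4 CPM in CK leaves. The groups did not overlap in either organ, the highest AS leaf, library 2, being well below the lowest CK leaf. The log2 difference was 7.20 ± 0.54 (edgeR adjusted p = 7.89e-06), made of log2 changes of 4.90 ± 0.40 in root and -2.30 ± 0.36 in leaf (± standard error, 3 libraries a group), and without AS leaf library 2 it was 7.94.

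A pair of ACT-like tyrosine kinases, one on an A and one on a D chromosome, moved the same way. Gh_A01G1425 (A01:88763701-88770963, minus strand) had 328, 314 and 180.2 CPM in AS roots, against 22.6, 32.7 and 46.7 CPM in CK roots. Leaf levels of Gh_A01G1425 were 21.8, 28.2 and 22.8 CPM in AS leaves, against 91.3, 86.8 and 81.2 CPM in CK leaves. Every AS root lay above every CK root and every AS leaf below every CK leaf, and the log2 difference was 4.84 ± 0.39 (edgeR adjusted p = 1.19e-05). Its partner Gh_D01G1663 (D01:52484858-52492118, minus strand) gave a log2 difference of 4.67 ± 0.42 (edgeR adjusted p = 2.54e-05), with log2 changes of 2.66 in root and -2.01 in leaf.

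Protein phosphatases 2C, some of which act as brakes on abscisic acid signalling, supplied 3 of the 10 genes. Gh_D02G0555 (D02:7505875-7507950, plus strand) had 52.8, 52.2 and 102 CPM in AS roots, against 18.7, 27.9 and 15.3 CPM in CK roots. Leaf levels of Gh_D02G0555 were 1.35, 1.95 and 1.22 CPM in AS leaves, against 4.84, 4.80 and 5.52 CPM in CK leaves. AS root library 3 was the highest of the roots, and AS and CK did not overlap in either organ. The log2 differences were 3.49 ± 0.42 for this gene, 3.69 ± 0.39 for Gh_A02G0495 (A02:7292521-7294588, plus strand) and 3.26 ± 0.42 for Gh_D04G1383 (D04:44783198-44784822, minus strand), with edgeR adjusted p of 1.19e-04, 5.87e-05 and 1.69e-04.

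Seed imbibition 1 is a raffinose synthase-like protein, and its gene Gh_A13G1088 (A13:61109340-61112995, minus strand) had 15.02, 14.6 and 21.2 CPM in AS roots, against 1.02, 1.49 and 1.63 CPM in CK roots. Leaf levels of Gh_A13G1088 were 3.72, 8.70 and 7.92 CPM in AS leaves, against 22.6, 19.4 and 18.3 CPM in CK leaves. AS and CK were separate in both organs, in root as the filter required in FPKM, and AS leaf library 1 was the lowest leaf (log2 difference 5.18 ± 0.42, edgeR adjusted p = 1.32e-05). A fit of all 18 libraries did not keep this gene in the opposite class. Gh_D05G0276 (D05:2443180-2444283, plus strand), a zinc finger protein of the CCCH type, a type that in many organisms binds RNA, had log2 changes of 1.51 ± 0.28 in root and -2.27 ± 0.39 in leaf, its leaf levels lying at 0.248, 0.169 and 0.350 CPM in AS leaves, against 1.40, 1.11 and 1.19 CPM in CK leaves.

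Less firm were a plant invertase and pectin methylesterase inhibitor, of a family that restrains cell wall and vacuolar enzymes, and xylem NAC domain 1, named after an Arabidopsis factor of the xylem. The inhibitor gene Gh_D02G1435 (D02:49433260-49435116, minus strand) had 26.0, 43.6 and 28.5 CPM in AS roots, against 1.22, 2.91 and 6.24 CPM in CK roots. Leaf levels of Gh_D02G1435 were 1.99, 0.902 and 1.78 CPM in AS leaves, against 5.95, 5.14 and 5.02 CPM in CK leaves. Its leaf log2 change of -1.78 lost its call when any 1 of the 6 leaf libraries was left out, and its log2 difference of 5.02 ± 0.66 became 5.76 without CK root library 3. Gh_D04G0278, xylem NAC domain 1 (D04:4180518-4181327, minus strand), had a log2 difference of 3.61 ± 0.56 (edgeR adjusted p = 5.39e-04), and its leaf call was lost without AS leaf library 1 or 3 or CK leaf library 1 or 2.

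The genes that fell in root and rose in leaf with the same rule were led by peroxidases. Class III peroxidases, secreted enzymes that use hydrogen peroxide to oxidise phenolics or to form wall crosslinks, supplied 4 of the 10. Gh_A08G1806 (A08:98615798-98617217, plus strand) had 6.36, 9.31 and 18.1 CPM in AS roots, against 134, 147 and 133 CPM in CK roots. Leaf levels of Gh_A08G1806 were 21.5, 15.004 and 17.4 CPM in AS leaves, against 0.301, 2.34 and 3.02 CPM in CK leaves. Root and leaf levels thus approached each other in AS, and no library of AS overlapped one of CK in either organ. The log2 difference was -6.85 ± 0.79 (edgeR adjusted p = 9.58e-05).

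A second peroxidase, Gh_D12G0853 (D12:27599646-27601009, minus strand), had 0.131, 0.694 and 0.170 CPM in AS roots, against 15.6, 31.0 and 7.05 CPM in CK roots. Leaf levels of Gh_D12G0853 were 4.82, 4.29 and 6.02 CPM in AS leaves, against 0.284, 0.507 and 0.998 CPM in CK leaves. The order of groups was the same, with a log2 difference of -8.79 ± 0.92 (edgeR adjusted p = 5.67e-05), which was -9.94 without AS root library 2. The peroxidase genes Gh_A04G0639 (A04:44156365-44158523, plus strand) and Gh_D04G1101 (D04:36441991-36444139, plus strand) had the largest differences in size, -11.83 ± 1.76 and -10.19 ± 1.58 (edgeR adjusted p = 4.10e-04 and 5.38e-04), at low levels in AS roots and CK leaves. Gh_D04G1101 had 0.174, 0 and 1.72 CPM in AS roots, against 52.0, 7.31 and 4.51 CPM in CK roots. Leaf levels of Gh_D04G1101 were 14.5, 10.5 and 22.6 CPM in AS leaves, against 0.250, 0.562 and 0.568 CPM in CK leaves. CK root library 1 stood far above the other CK roots, the leaf call was lost without CK leaf library 1, and the difference was -12.97 without AS root library 3. For Gh_A04G0639, at 0 in AS root libraries 1 and 2 and in CK leaf libraries 1 and 2, no fitted value is given without AS root library 3 or CK leaf library 3, since a group is then at 0 throughout.

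Gh_D03G0709 (D03:24740754-24741311, minus strand) is described as a dirigent-like disease resistance protein, and dirigent proteins guide the coupling of phenolic radicals into lignans and lignin-like products. It had 0.327, 0.564 and 0.825 CPM in AS roots, against 13.5, 7.31 and 7.30 CPM in CK roots. Leaf levels of Gh_D03G0709 were 19.4, 13.5 and 18.8 CPM in AS leaves, against 0.584, 0.398 and 0.707 CPM in CK leaves. It had the smallest adjusted p of the difference among the 10, every AS root lying below 1 CPM and every AS leaf far above the CK leaves (log2 difference -8.97 ± 0.51, edgeR adjusted p = 2.51e-06). The PEP1 receptor gene Gh_D08G2296 (D08:62587855-62590878, plus strand), whose Arabidopsis namesake is a receptor kinase for a peptide released on wounding, had 1.46, 3.65 and 5.22 CPM in AS roots, against 19.4, 19.8 and 25.4 CPM in CK roots. Leaf levels of Gh_D08G2296 were 10.9, 9.07 and 14.9 CPM in AS leaves, against 0.868, 1.17 and 1.44 CPM in CK leaves. Its log2 difference was -5.97 ± 0.53 (edgeR adjusted p = 2.20e-05), with no overlap of AS and CK in either organ.

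Gibberellin 2-oxidase inactivates gibberellins, and Gh_D06G2112 (D06:62991838-62994282, minus strand) had 0.959, 0.694 and 1.02 CPM in AS roots, against 2.99, 8.25 and 4.95 CPM in CK roots. Leaf levels of Gh_D06G2112 were 3.12, 2.03 and 2.19 CPM in AS leaves, against 0.267, 0.425 and 0.291 CPM in CK leaves. The groups did not overlap in either organ, and the log2 difference was -5.49 ± 0.53 (edgeR adjusted p = 3.86e-05). Gh_A09G0635 (A09:49212392-49214163, plus strand), a glycosyl hydrolase, had 112, 113 and 91.9 CPM in AS roots, against 1064, 1663 and 1473 CPM in CK roots. Leaf levels of Gh_A09G0635 were 63.8, 48.3 and 84.5 CPM in AS leaves, against 4.21, 10.6 and 14.4 CPM in CK leaves. Its log2 difference was -6.48 ± 0.55 (edgeR adjusted p = 1.84e-05). The last of the 10 were an FAD-binding protein of the berberine family, oxidases of plant alkaloids and carbohydrates, Gh_D12G2476 (D12:57697919-57699523, plus strand), and a P-loop nucleoside triphosphate hydrolase, Gh_D12G0586 (D12:10963753-10965330, minus strand). Their log2 differences were -7.28 ± 1.02 and -5.67 ± 0.81, or -8.20 and -6.46 without AS root library 3.

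**Figure D2:**
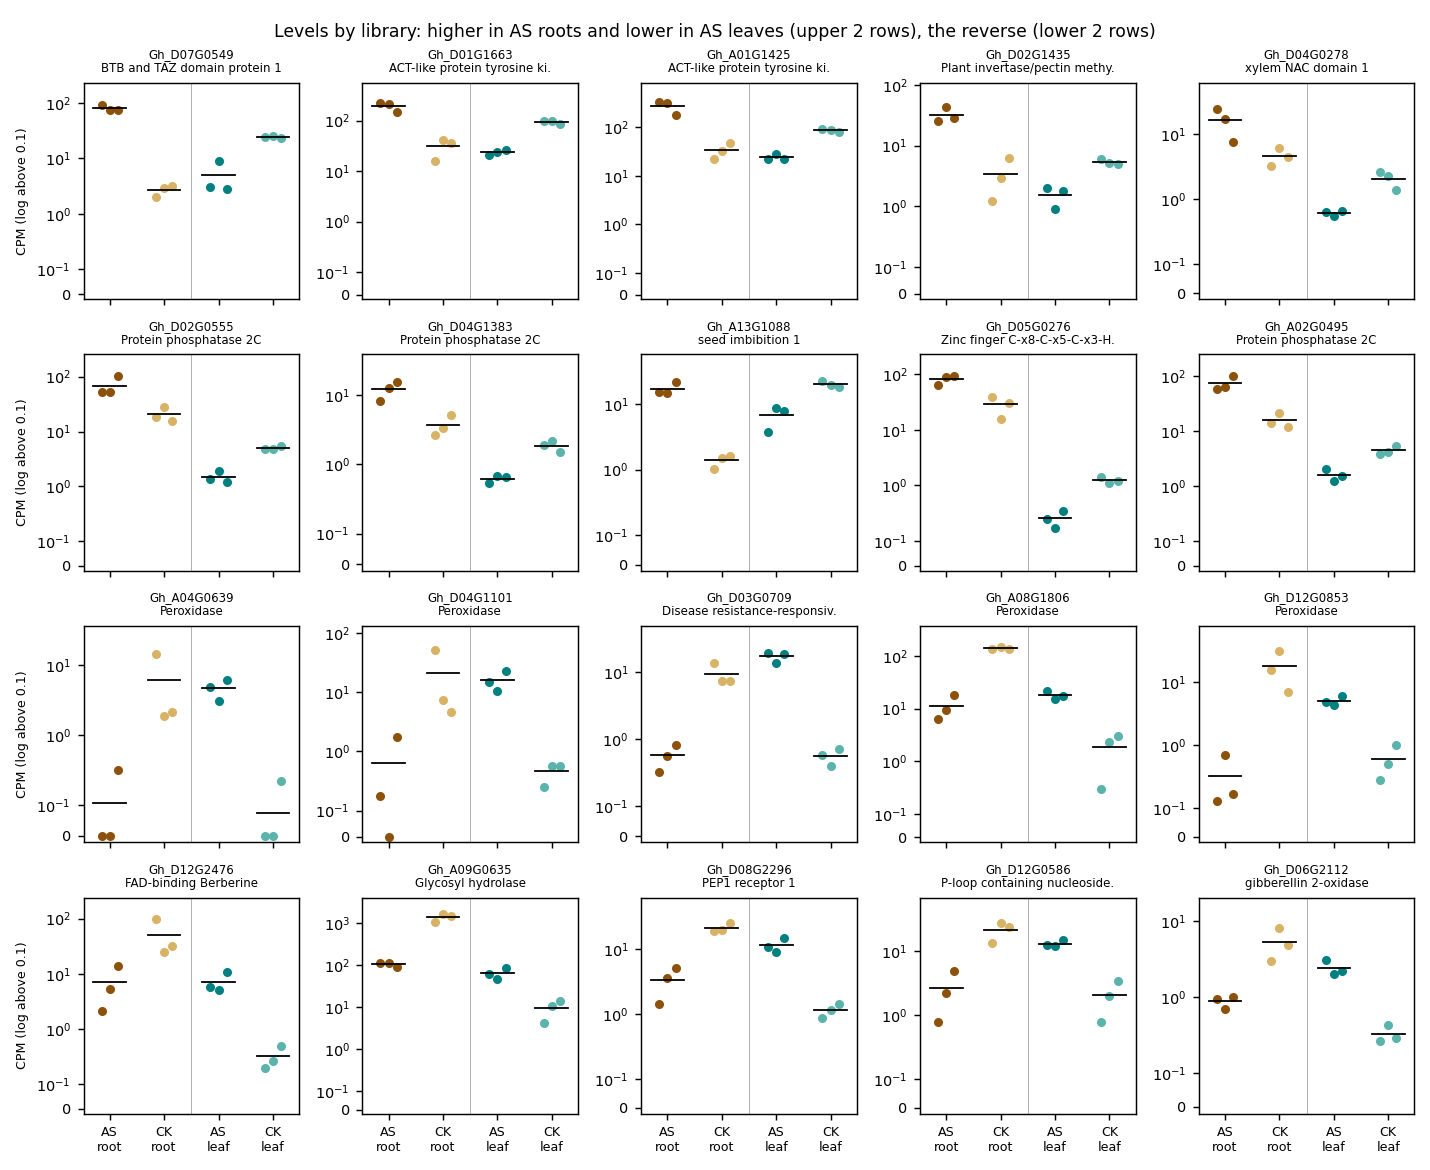
CPM (log axis above 0.1) of the 20 genes named for opposite responses, 1 panel a gene, with 3 points a group in the order AS root, CK root, AS leaf, CK leaf and a line at the group mean. The upper 2 rows hold the 10 genes that rose in root and fell in leaf and the lower 2 rows the 10 that fell in root and rose in leaf. AS and CK points do not overlap in either organ of any panel, which was a condition of naming.

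Filter and direction were linked for some of these genes. Of the 33591 tested genes, 2155 passed in an organ through 1 of its groups. All 3 libraries of the other group then lay below 1 FPKM. Such genes had to differ in that organ in FPKM, which carries no TMM scaling. TMM factors were 0.692 to 0.768 in AS roots and 0.979 to 1.08 in CK roots, so TMM scaling raises AS roots against CK roots. In root 1681 passed through CK alone and had to be lower in AS roots in FPKM, though not always after TMM scaling. Through AS alone 185 passed in root. In leaf 296 passed through AS alone and 53 through CK alone. These genes made up 78 of the 1061 opposite genes, 17 of those that rose in root and 61 of those that fell in root. Of the 10 named genes that rose in root and fell in leaf 3 were such genes, Gh_A13G1088 in root and Gh_D04G1383 and Gh_D05G0276 in leaf. Of the 10 that fell in root and rose in leaf 6 were, Gh_A04G0639, Gh_D12G0853 and Gh_D06G2112 in both organs and Gh_D04G1101, Gh_D12G2476 and Gh_D08G2296 in leaf. For these 9 genes the filter required AS and CK to be separate in FPKM in the organs named, so that separation adds nothing to the call.

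Several deposited descriptions recurred among the opposite genes; these families were picked after their values were seen. Of genes that fell in root and rose in leaf, chaperones recurred: 6 of the 11 tested Hsp70 family genes, 4 of 10 genes of the htpG family, which is the Hsp90 type, and 4 of 6 of calreticulin 1a. Cupredoxins, small copper proteins of the wall and apoplast, supplied 5 of 12, dirigent-like proteins 4 of 13, polyubiquitin 10 genes 5 of 34, glycosyl hydrolases of family 31 4 of 7, and serine hydroxymethyltransferase 4, an enzyme of one-carbon metabolism, 4 of 5. The share over all tested genes was 1.49%. With library totals all of these genes stayed in the class, which then held 15 polyubiquitin 10 genes and 6 glycosyl hydrolases of family 31 and the same number as before for the other 6 families. Of genes that rose in root and fell in leaf (1.67% over all tested genes), protein phosphatases 2C supplied 8 of 143, octicosapeptide/Phox/Bem1p proteins 6 of 16, bZIP factors 5 of 39, BES1/BZR1 homolog 4, named for factors of brassinosteroid response in Arabidopsis, 4 of 9, homeobox-leucine zipper genes 4 of 11 and MATE transporters 4 of 31. With library totals 3 of the 8 protein phosphatases 2C, 5 of the 6 octicosapeptide genes, 1 of the 5 bZIP genes and 2 of the 4 in each of the last 3 families stayed in the class.

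Gene lists for 48 functions were matched by description, and each is given by its counts and its median difference. Over all tested genes 20.1% of differences were positive and 18.7% negative, with medians of -0.01 for the difference, -0.02 in root and -0.05 in leaf. In root 25.8% of all tested genes rose and 26.5% fell, and in leaf 8.49% rose and 6.82% fell. A list's counts in an organ are to be read against these shares. With library totals, which lower the difference of every gene by about the same amount, the shares over all tested genes were 8.31% positive and 46.1% negative and the median was -0.62, and a list's counts under that scaling are to be read against these. With library totals 1564 of the 33591 tested genes fell in root and rose in leaf and 161 rose in root and fell in leaf, against 499 (1.49%) and 562 (1.67%) with TMM. No test was made of a list. Members that passed the filter through 1 group of an organ numbered 10 of 48 in the gibberellin list, 8 of 34 expansins, 5 of 28 flavonoid genes, 7 of 47 iron genes, 17 of 119 UDP-glucosyl transferases and 8 of 57 cellulose synthase and arabinogalactan genes. They also numbered 16 of 121 MYB factors, 19 of 156 auxin genes, 5 of 38 fermentation genes, 9 of 77 phosphate genes and 19 of 172 ethylene response factors. Of the genes named for lists below, Gh_A05G3239, Gh_A13G1845, Gh_A01G2084, Gh_A03G1643 and Gh_D09G1013 passed in root through CK alone and Gh_A04G0582, Gh_A05G3108 and Gh_A13G1132 through AS alone, while Gh_D11G2416, Gh_A10G1002, Gh_D04G0260 and Gh_A05G0327 passed in leaf through AS alone. For these genes the filter required AS and CK to be separate in FPKM in that organ, so separation there adds nothing to the call. Class III peroxidases numbered 33 tested of 198 in the table, 7 of them passing the filter through 1 group of an organ. Of the tested members 0 had a positive and 21 a negative difference, median -2.68 (0 and 24, median -3.30, with library totals), and 3 rose and 18 fell in root while 16 rose and 1 fell in leaf. The median log2 change was -1.46 in root and 1.35 in leaf, and 9 members fell in root and rose in leaf (13 with library totals). Gh_A05G3239, a peroxidase, had 0.174, 0.174 and 0.291 CPM in AS roots, against 1.65, 2.53 and 1.52 CPM in CK roots. Leaf levels of Gh_A05G3239 were 29.96, 36.1 and 39.9 CPM in AS leaves, against 12.9, 13.8 and 13.7 CPM in CK leaves. AS lay below CK in root and above it in leaf in every library, with a log2 difference of -4.56 ± 0.33 (edgeR adjusted p = 6.52e-06).

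NADPH oxidases, the respiratory burst enzymes that make superoxide outside the cell, passed with 7 members, of which 0 had a positive and 3 a negative difference, median -1.09 (0 and 7, median -1.68, with library totals), or 7 negative without AS root library 3. Here 4 rose and 2 fell in root while 6 rose and 0 fell in leaf, with a median of 0.64 in root and 1.51 in leaf. Respiratory burst oxidase protein F, Gh_A12G2669, had 9.09, 11.5 and 13.5 CPM in AS roots, against 34.3, 27.3 and 28.5 CPM in CK roots. Leaf levels of Gh_A12G2669 were 51.9, 30.2 and 43.1 CPM in AS leaves, against 17.1, 20.7 and 26.2 CPM in CK leaves. It fell in root and rose in leaf, with a log2 difference of -2.37 ± 0.31 (edgeR adjusted p = 1.94e-04). For Gh_A12G2669 the leaf call was lost without AS leaf library 1 or CK leaf library 1 or 2 (log2 0.78 to 0.95 in those fits). The scavengers of the superoxide dismutase, catalase and ascorbate-glutathione list were less one-sided: of 80 members 12 had a positive and 23 a negative difference, median -0.23 (0 and 47, median -0.85, with library totals), and the positive count was 6 to 7 when CK root library 2, CK leaf library 1, AS leaf library 1 or AS leaf library 3 was left out. Ascorbate peroxidase 1 (Gh_A08G1744), which removes hydrogen peroxide with ascorbate, had a log2 change of -1.61 ± 0.18 in root and 0.71 ± 0.17 in leaf. The leaf call of Gh_A08G1744 was lost without AS leaf library 1 or 3 or CK leaf library 1, 2 or 3 (log2 0.61 to 0.75 in those fits). Glutathione reductase (Gh_A11G1167), which returns glutathione to its reduced form, had log2 changes of 0.91 ± 0.14 in root and -0.12 ± 0.14 in leaf.

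Phenylpropanoid and lignin genes mostly fell in root like the peroxidases, but in leaf they went both ways. Of 80 tested members of 344 in the table, 4 had a positive and 43 a negative difference, median -1.41 (2 and 56, median -2.01, with library totals), 8 rose and 53 fell in root while 25 rose and 16 fell in leaf, and 16 fell in root and rose in leaf (17 with library totals). The median log2 change was -1.25 in root and 0.20 in leaf. Without TMM scaling, the 344 genes together held 0.902% of all counts in AS leaves and 1.55% in CK leaves. In root they held 1.47% in AS and 2.33% in CK. A second dirigent-like gene, Gh_A13G1845, had 0.436, 0.499 and 0.631 CPM in AS roots, against 10.3, 7.67 and 3.81 CPM in CK roots. Leaf levels of Gh_A13G1845 were 19.0, 12.2 and 18.8 CPM in AS leaves, against 2.71, 4.36 and 7.08 CPM in CK leaves. The gene repeated the pattern of Gh_D03G0709 (log2 difference -5.62 ± 0.59, edgeR adjusted p = 5.77e-05). Against the list's direction, a cinnamyl-alcohol dehydrogenase (Gh_D12G2382), the enzyme of the last step to lignin monomers, rose in root (log2 1.21) and had a log2 change of -0.01 in leaf, which was not called. Flavonoid and anthocyanin genes mostly fell in both organs instead. Of 28 members 4 rose and 21 fell in root while 0 rose and 16 fell in leaf, with medians of -1.40 in root and -0.98 in leaf, and 3 had a positive and 5 a negative difference, median -0.40 (1 and 14, median -1.01, with library totals), 9 negative without CK root library 2. A chalcone synthase family gene (Gh_A02G0236), which opens the flavonoid route, had 1.72, 1.82 and 2.23 CPM in AS roots, against 13.5, 8.37 and 9.63 CPM in CK roots. Leaf levels of Gh_A02G0236 were 671, 522 and 704 CPM in AS leaves, against 1125, 1201 and 1182 CPM in CK leaves. It fell in both organs and further in root, with a log2 difference of -1.56 ± 0.30 (edgeR adjusted p = 0.00184).

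The mevalonate route and terpene synthases, which in cotton lead to gossypol, gave 78 tested members. Among them 10 had a positive and 33 a negative difference, median -1.005 (2 and 54, median -1.61, with library totals), 5 positive without AS leaf library 1, and 13 rose and 45 fell in root while 8 rose and 8 fell in leaf. A terpene synthase (Gh_D13G1503) had 45.96, 47.5 and 92.5 CPM in AS roots, against 181, 325 and 296 CPM in CK roots. Leaf levels of Gh_D13G1503 were 9.84, 14.4 and 8.71 CPM in AS leaves, against 3.87, 4.10 and 4.13 CPM in CK leaves. AS was lower than CK in all root libraries and higher in all leaf libraries (log2 difference -3.55 ± 0.43, edgeR adjusted p = 1.21e-04). Lipid-transfer proteins, small secreted carriers of lipids, numbered 25 tested of 225, and 0 had a positive and 10 a negative difference, median -2.40 (0 and 11, median -3.08, with library totals), with a median log2 change of -1.87 in root and 0.13 in leaf. UDP-glucosyl transferases, which attach sugars to many small molecules, split evenly with TMM scaling: of 119 members 27 had a positive and 29 a negative difference, median -0.05 (18 and 53, median -0.68, with library totals). Gh_A04G0582 of this family rose in root (149, 54.7 and 81.0 CPM in AS roots, against 1.02, 1.01 and 1.40 CPM in CK roots) and had a log2 change of 0.63 in leaf, while Gh_D06G0255 fell (log2 -3.05) in root and rose (log2 1.33) in leaf. The leaf call of Gh_D06G0255 was lost without AS leaf library 1 or 3 or CK leaf library 1, 2 or 3 (log2 1.20 to 1.40 in those fits).

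Pathogenesis-related genes (osmotins, thaumatins, chitinases and glucanases) rose in leaf without a uniform direction in root with TMM scaling. Of 46 tested members of 187 listed, 14 rose and 15 fell in root while 24 rose and 0 fell in leaf, the medians were -0.14 in root and 1.13 in leaf, and 4 had a positive and 23 a negative difference, median -0.91 (3 and 29, median -1.52, with library totals). A pathogenesis-related 4 gene (Gh_D11G2595) had 1.90, 0.933 and 0.655 CPM in AS roots, against 15.1, 29.8 and 19.8 CPM in CK roots. Leaf levels of Gh_D11G2595 were 5.85, 3.29 and 5.71 CPM in AS leaves, against 1.67, 2.67 and 2.23 CPM in CK leaves. The leaf call of Gh_D11G2595 was lost without AS leaf library 1 or 3, CK leaf library 1, 2 or 3, AS root library 2 or CK root library 3 (log2 1.01 to 1.34). The root fall was the larger part of its log2 difference of -5.38 ± 0.54 (edgeR adjusted p = 4.45e-05). In contrast a thaumatin family gene (Gh_A05G0824) rose in both organs, by log2 changes of 3.78 ± 0.31 in root and 1.70 ± 0.30 in leaf.

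Ethylene synthesis held a pair of genes with clear opposite responses. The ethylene-forming enzyme, 1-aminocyclopropane-1-carboxylate oxidase, catalyses the last step to ethylene, and its gene Gh_A07G0775 had 17.3, 15.8 and 15.4 CPM in AS roots, against 182, 318 and 204 CPM in CK roots. Leaf levels of Gh_A07G0775 were 31.2, 18.2 and 26.9 CPM in AS leaves, against 11.3, 10.7 and 11.1 CPM in CK leaves. The second gene of that description, Gh_D07G0842, had 17.0, 14.5 and 17.0 CPM in AS roots, against 119.7, 217 and 161 CPM in CK roots. Leaf levels of Gh_D07G0842 were 24.6, 21.7 and 21.4 CPM in AS leaves, against 13.3, 11.9 and 11.1 CPM in CK leaves. For both genes all AS roots lay below all CK roots and all AS leaves above all CK leaves, and the log2 differences were -5.06 ± 0.33 and -4.25 ± 0.27 (edgeR adjusted p = 3.47e-06 and 3.28e-06). ACC synthase 10 (Gh_D12G2216), named for the step before it, rose in root (log2 2.20) and had a log2 change of 0.61 in leaf, not called. Of the 31 list members 2 had a positive and 13 a negative difference, median -0.59 (1 and 19, median -1.20, with library totals), or 5 positive and 16 negative without AS root library 3, and 4 rose and 18 fell in root while 7 rose and 3 fell in leaf, 7 of them falling in root and rising in leaf (8 with library totals).

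Ethylene response factors went both ways: of 172 members 48 had a positive and 38 a negative difference, median 0.07 (28 and 66, median -0.53, with library totals). Ethylene responsive element binding factor 5 (Gh_A12G1954) had 3.31, 1.56 and 3.54 CPM in AS roots, against 51.1, 62.8 and 49.4 CPM in CK roots. Leaf levels of Gh_A12G1954 were 4.88, 4.27 and 3.67 CPM in AS leaves, against 1.60, 1.21 and 1.04 CPM in CK leaves. This factor fell in root and rose in leaf (log2 difference -6.02 ± 0.38, edgeR adjusted p = 3.28e-06), whereas Gh_D05G2400 of the same DNA-binding family rose in both, by log2 changes of 5.32 ± 0.26 in root and 0.997 ± 0.24 in leaf. The leaf call of Gh_D05G2400 was lost without AS leaf library 1 or 3 or CK leaf library 1 or 3 (log2 0.82 to 1.002 in those fits). Of 58 jasmonate genes 13 had a positive and 15 a negative difference, median -0.06 (5 and 27, median -0.66, with library totals), 7 positive without CK leaf library 3, and 2 genes of 1 description moved in different ways: jasmonate-zim-domain protein 1, a repressor of jasmonate response, rose in root and fell in leaf as Gh_D06G0810 (log2 changes of 1.53 ± 0.26 in root and -1.23 ± 0.26 in leaf), and as Gh_A08G2199 had log2 changes of -0.21 ± 0.15 in root and 1.58 ± 0.16 in leaf, of which the leaf change was called. WRKY factors, many of which act in defence, had 145 members, and 46 had a positive and 21 a negative difference, median 0.20 (23 and 44, median -0.42, with library totals), with WRKY 65 (Gh_D05G3827) at log2 changes of 1.51 ± 0.17 in root and -0.89 ± 0.17 in leaf and WRKY 70 (Gh_D13G0071) at log2 changes of -2.34 ± 0.23 in root and 0.13 ± 0.22 in leaf.

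Chaperones of the endoplasmic reticulum, where secreted proteins are folded, had 50 tested members of 67, and 2 had a positive and 41 a negative difference, median -1.36 (0 and 45, median -1.97, with library totals). Of these 1 rose and 39 fell in root while 17 rose and 0 fell in leaf, 16 fell in root and rose in leaf (24 with library totals), and the median log2 change was -0.94 in root and 0.43 in leaf. Calreticulin 1a (Gh_D13G1884), a calcium-binding chaperone, had 121, 131 and 115 CPM in AS roots, against 298, 443 and 375 CPM in CK roots. Leaf levels of Gh_D13G1884 were 143, 123 and 148 CPM in AS leaves, against 87.7, 80.4 and 84.4 CPM in CK leaves. No library of AS overlapped CK in either organ, with a log2 difference of -2.32 ± 0.23 (edgeR adjusted p = 3.86e-05). The leaf call of Gh_D13G1884 was lost without AS leaf library 1 or 3 or CK leaf library 2 (log2 0.66 to 0.68 in those fits). Calreticulin 3 (Gh_D03G0651) fell in root (log2 -2.45) and had a log2 change of 0.38 in leaf, not called. Against the list's direction, an endoplasmic reticulum oxidoreductin (Gh_A06G1214), which passes oxidising power to folding proteins, rose in root (log2 0.96). The difference of Gh_A06G1214 was not called without CK leaf library 1 (log2 0.87).

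Heat shock proteins and factors, most of them of the cytosol and the organelles, had 160 members. Of these 65 had a positive and 23 a negative difference, median 0.45 (47 and 44, median -0.16, with library totals). The shares were 40.6% positive and 14.4% negative, against 20.1% and 18.7% of all tested genes, and with library totals 29.4% and 27.5%, against 8.31% and 46.1%. In this list 84 rose and 21 fell in root while 43 rose and 8 fell in leaf. Within the list, 4 rose in root and fell in leaf (1.67% of all tested genes) and 11 fell in root and rose in leaf (1.49% of all tested genes). With library totals these counts were 0 and 17. An Hsp70 family gene (Gh_D06G2388) had 22.7, 19.7 and 19.7 CPM in AS roots, against 86.1, 117 and 97.8 CPM in CK roots. Leaf levels of Gh_D06G2388 were 52.6, 43.4 and 51.6 CPM in AS leaves, against 32.9, 35.7 and 37.4 CPM in CK leaves. This gene ran against the list in root, as did the htpG gene Gh_A06G0030 with log2 changes of -1.50 ± 0.16 in root and 0.81 ± 0.16 in leaf. The leaf call of Gh_D06G2388 was lost without AS leaf library 1 or 3 or CK leaf library 1, 2 or 3 (log2 0.43 to 0.52 in those fits).

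Ribosomal proteins rose in leaf in large numbers with TMM scaling. In root similar numbers rose and fell, at smaller shares than the 25.8% and 26.5% of all tested genes. In leaf 8.49% of all tested genes rose and 6.82% fell. Among 924 tested members 131 rose and 141 fell in root while 371 rose and 6 fell in leaf, and 56 had a positive and 369 a negative difference, median -0.48 (20 and 675, median -1.09, with library totals). The median log2 change was -0.04 in root (-0.52 with library totals) and 0.44 in leaf, and 49 members fell in root and rose in leaf, against 1.49% of all tested genes. With library totals 328 members did, against 1564 of the 33591 tested genes. A ribosomal protein S19 gene (Gh_A09G1953) had 11.7, 12.04 and 15.5 CPM in AS roots, against 27.1, 25.4 and 21.0 CPM in CK roots. Leaf levels of Gh_A09G1953 were 51.4, 49.5 and 48.7 CPM in AS leaves, against 29.9, 28.5 and 27.9 CPM in CK leaves. Its log2 difference was -1.70 ± 0.18 (edgeR adjusted p = 6.84e-05), the libraries being separate in both organs. Ribosome biogenesis genes gave 68 members, and 3 had a positive and 11 a negative difference, median -0.10 (0 and 39, median -0.71, with library totals), the negative count being 6 to 7 without CK root library 2, CK leaf library 2, AS root library 2 or AS leaf library 1, and the positive count 1 without CK leaf library 2 and 5 without AS root library 1. Of 150 proteasome subunits 13 had a positive and 41 a negative difference, median -0.25 (1 and 112, median -0.86, with library totals), and of 36 autophagy genes 16 had a positive and 4 a negative difference, median 0.45 (1 and 12, median -0.16, with library totals), with 10 positive without CK leaf library 1 and 9 without AS leaf library 1. Autophagy-related protein 13 (Gh_A12G0005), part of the complex that starts autophagy, rose in root (log2 0.42) and fell in leaf (log2 -0.53). The root call of Gh_A12G0005 was lost without AS root library 1 or CK root library 1 (log2 0.29 to 0.39 in those fits) and its leaf call was lost without AS leaf library 1 or 3 or CK leaf library 1, 2 or 3 (log2 -0.55 to -0.47 in those fits).

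Cellulose synthases and arabinogalactan proteins had 57 tested members, of which 3 had a positive and 34 a negative difference, median -1.08 (3 and 41, median -1.68, with library totals), or 5 positive without AS root library 3, and 6 rose and 33 fell in root while 4 rose and 0 fell in leaf. Cellulose synthase A2 (Gh_A02G1317) had 19.7, 16.1 and 22.6 CPM in AS roots, against 60.8, 73.6 and 61.1 CPM in CK roots. Leaf levels of Gh_A02G1317 were 91.4, 74.5 and 86.2 CPM in AS leaves, against 65.0, 64.0 and 67.3 CPM in CK leaves. The fall was in root, and the leaf log2 change of 0.36 was not called although the leaf libraries did not overlap. A pair of cellulose synthase-like E1 genes on chromosome D11 parted: Gh_D11G2414 had log2 changes of 3.05 ± 0.27 in root and 0.73 ± 0.25 in leaf, and Gh_D11G2416 had log2 changes of -1.29 ± 0.22 in root and 2.40 ± 0.25 in leaf.

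Expansin-like B1, of a family related to wall-loosening proteins, gave Gh_D08G1777 592, 672 and 624 CPM in AS roots, against 1438, 1418 and 1624 CPM in CK roots. Leaf levels of Gh_D08G1777 were 37.7, 48.7 and 70.3 CPM in AS leaves, against 4.26, 2.70 and 5.002 CPM in CK leaves. It fell in root and rose in leaf with a log2 difference of -4.96 ± 0.38 (edgeR adjusted p = 9.97e-06), while of the 34 expansin and xyloglucan endotransglucosylase genes 4 had a positive and 7 a negative difference, median -0.38 (1 and 12, median -1.01, with library totals), 7 positive without AS root library 3. Tubulins numbered 48, and 3 had a positive and 12 a negative difference, median -0.25 (0 and 28, median -0.86, with library totals). Tubulin alpha-3 (Gh_D13G2200), a microtubule subunit, had 9.001, 10.1 and 12.2 CPM in AS roots, against 79.1, 74.5 and 50.7 CPM in CK roots, and in leaf its log2 change was -0.02. Of 179 cell division genes 40 had a positive and 14 a negative difference, median 0.31 (16 and 42, median -0.30, with library totals). The positive share of 22.3% was close to the 20.1% of all tested genes, and the negative share was 7.82%, against 18.7%.

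Growth hormones gave mixed lists. Of 156 auxin response genes 24 rose and 72 fell in root while 11 rose and 39 fell in leaf, and 35 had a positive and 28 a negative difference, median -0.18 (18 and 71, median -0.79, with library totals). Auxin response factor 4 (Gh_D09G1013), a transcription factor of auxin signalling, had 3.66, 3.84 and 3.11 CPM in AS roots, against 33.9, 36.2 and 24.7 CPM in CK roots, and a leaf log2 change of -0.41 that was not called. A GH3 family gene (Gh_D04G0260), whose family joins auxin to amino acids, rose in leaf (9.85, 5.06 and 9.66 CPM in AS leaves, against 1.54, 1.001 and 1.51 CPM in CK leaves) and had a root log2 change of -0.60, not called. Of 48 gibberellin genes 8 had a positive and 17 a negative difference, median -0.43 (7 and 25, median -1.04, with library totals), and the negative count was 9 to 11 when any of 7 libraries was left out, CK leaf 1, 2 or 3, AS root 1 or 2 or AS leaf 1 or 3. Of 43 cytokinin genes 6 had a positive and 15 a negative difference, median -0.36 (3 and 26, median -0.97, with library totals). Response regulator 6 (Gh_D09G1609), a feedback repressor of cytokinin signalling in Arabidopsis, rose in root (log2 2.01), and response regulator 1 (Gh_Sca005214G03) fell (log2 -1.61).

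Compatible solutes and stress sugars had the most positive median difference of the 48 lists with TMM scaling. Galactinol, raffinose, proline and trehalose are small molecules that balance water potential and protect proteins. Genes were matched by description, and whether each product makes or breaks down these molecules was not tested. Of 49 tested members of 100, 9 of which passed through 1 group of an organ, 32 had a positive and 3 a negative difference, median 1.59 (25 and 7, median 0.996, with library totals). In this list 33 rose and 7 fell in root while 1 rose and 5 fell in leaf, and the median log2 change was 1.31 in root and -0.23 in leaf. A raffinose synthase family gene (Gh_A05G3108) had 57.3, 38.6 and 33.7 CPM in AS roots, against 0.578, 0.395 and 0.834 CPM in CK roots. Leaf levels of Gh_A05G3108 were 4.84, 4.67 and 1.66 CPM in AS leaves, against 5.64, 5.59 and 5.76 CPM in CK leaves. The root rise was large, between root groups that the filter required to be separate in FPKM. The leaf log2 change of -0.60 was not called although the leaf libraries did not overlap (log2 difference 6.76 ± 0.54, edgeR adjusted p = 1.15e-05).

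Seed imbibition 2 (Gh_D01G1177), a relative of seed imbibition 1, had 353, 431 and 398 CPM in AS roots, against 87.1, 87.9 and 102 CPM in CK roots. Leaf levels of Gh_D01G1177 were 71.3, 86.5 and 74.2 CPM in AS leaves, against 131, 121 and 108 CPM in CK leaves. It rose in root and fell in leaf like its relative, with a log2 difference of 2.73 ± 0.21 (edgeR adjusted p = 7.98e-06). For Gh_D01G1177 the leaf call was lost without AS leaf library 1 or 3 or CK leaf library 1 (log2 -0.60 to -0.56 in those fits). Late embryogenesis abundant and dehydrin proteins, hydrophilic protectors of drying cells, had 22 members, and 11 had a positive and 5 a negative difference, median 1.25 (7 and 7, median 0.62, with library totals), with 3 negative when any of 8 libraries was left out, CK root 1 or 2, CK leaf 1, 2 or 3, AS root 3 or AS leaf 2 or 3. Cold regulated gene 27 (Gh_D12G0215), whose description names neither of these protein classes, rose in root and fell in leaf (log2 changes of 2.23 ± 0.23 in root and -0.82 ± 0.24 in leaf). For Gh_D12G0215 the leaf call was lost without AS root library 2, AS leaf library 1, 2 or 3 or CK leaf library 1, 2 or 3 (log2 -0.92 to -0.71 in those fits).

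Of 229 abscisic acid genes 76 had a positive and 31 a negative difference, median 0.28 (40 and 84, median -0.34, with library totals). The shares were 33.2% positive and 13.5% negative, against 20.1% and 18.7% of all tested genes, and with library totals 17.5% and 36.7%, against 8.31% and 46.1%. With TMM scaling 10 of them rose in root and fell in leaf, against 1.67% of all tested genes, and 0 did the reverse. The counts were 3 and 1 with library totals and 6 and 1 with TMM within each organ. The list took in protein phosphatases 2C, a family of 143 tested genes of which some act in abscisic acid signalling. The part of that family in the list's counts was not tested. A protein phosphatase 2C gene (Gh_Sca009376G01) had 71.0, 59.998 and 52.6 CPM in AS roots, against 12.4, 12.6 and 15.7 CPM in CK roots, with a leaf log2 change of -0.37, not called. PYR1-like 4 (Gh_D01G2250), of the receptor family of abscisic acid, fell in both organs, by log2 changes of -1.73 ± 0.12 in root and -0.40 ± 0.12 in leaf. Its leaf call was lost without AS leaf library 1, 2 or 3 or CK leaf library 1 or 2 (log2 -0.44 to -0.30 in those fits). Calcium sensors and kinases, which read calcium signals, had 256 members, and 58 had a positive and 60 a negative difference, median -0.05 (27 and 123, median -0.65, with library totals). CBL-interacting protein kinase 3 (Gh_D05G0732) rose in root (log2 2.37) and had a log2 change of -0.20 in leaf, not called, and an EF-hand protein (Gh_D09G0130) fell in root and rose in leaf (log2 changes of -1.64 ± 0.22 in root and 1.30 ± 0.21 in leaf).

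Circadian clock genes called in root mostly rose, and those called in leaf mostly fell. Of 43 members 28 had a positive and 1 a negative difference, median 1.02 (16 and 4, median 0.40, with library totals), 21 rose and 2 fell in root while 2 rose and 12 fell in leaf, and the medians were 0.55 in root and -0.36 in leaf. FKF1, the flavin-binding kelch repeat F-box protein that in Arabidopsis times flowering, is the gene Gh_D12G1525, which had 101, 124 and 87.1 CPM in AS roots, against 21.8, 24.4 and 31.7 CPM in CK roots. Leaf levels of Gh_D12G1525 were 15.8, 20.3 and 14.8 CPM in AS leaves, against 25.4, 28.2 and 36.3 CPM in CK leaves. The gene rose in root and fell in leaf (log2 difference 2.82 ± 0.28, edgeR adjusted p = 4.13e-05). For Gh_D12G1525 the leaf call was lost without AS leaf library 1 or 3 or CK leaf library 3 (log2 -0.77 to -0.66 in those fits). Cycling DOF factor 2 (Gh_A11G0628), a repressor of the same pathway in Arabidopsis, rose in root (log2 3.02), and ELF4-like 4 (Gh_D05G1344) had log2 changes of -0.62 ± 0.20 in root and 0.70 ± 0.20 in leaf. The root call of Gh_D05G1344 was lost without AS root library 1 or 2 or CK root library 2 (log2 -0.60 to -0.48 in those fits). Its leaf call was lost without AS leaf library 1 or 3 or CK leaf library 2 or 3 (log2 0.55 to 0.73 in those fits). The labels give no hour of sampling for any group.

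Many photosystem and light-harvesting genes rose in root, where their levels were low. Of 50 tested members of 313 listed, 27 had a positive and 2 a negative difference, median 1.25 (17 and 6, median 0.63, with library totals), and 24 rose and 5 fell in root while 0 rose and 5 fell in leaf. Photosystem I subunit F (Gh_A06G1222) had 2.07, 1.97 and 2.28 CPM in AS roots, against 0.438, 0.773 and 0.778 CPM in CK roots. Leaf levels of Gh_A06G1222 were 204, 224 and 196 CPM in AS leaves, against 298, 282 and 237 CPM in CK leaves. Every AS root lay above every CK root, all far below the leaf levels, and the log2 difference was 2.05 ± 0.27 (edgeR adjusted p = 1.89e-04). The summed share of the 214 leaf markers was 0.0584 to 0.0881% in AS roots and 0.0521 to 0.0679% in CK roots, with 30 and 36 of them at 0, and its part in these root changes was not tested. Of 34 chlorophyll and Calvin cycle genes 9 had a positive and 6 a negative difference, median 0.10 (5 and 13, median -0.50, with library totals), and phosphoribulokinase (Gh_A12G1862), a Calvin cycle enzyme, had 88.1, 154 and 145 CPM in AS roots, against 7.93, 6.65 and 15.3 CPM in CK roots, beside a leaf log2 change of -0.14 that was not called.

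Senescence genes had 49 members, and 18 had a positive and 6 a negative difference, median 0.55 (9 and 12, median -0.05, with library totals), or 3 negative without AS root library 2. Senescence associated gene 20 (Gh_D06G1750) had 337, 305 and 247 CPM in AS roots, against 69.5, 64.1 and 87.9 CPM in CK roots. Leaf levels of Gh_D06G1750 were 16.2, 16.4 and 17.3 CPM in AS leaves, against 52.1, 45.1 and 38.3 CPM in CK leaves. It rose in root and fell in leaf by more than 2-fold in both, with a log2 difference of 3.44 ± 0.24 (edgeR adjusted p = 6.12e-06). NAC factors, a family with roles in stress and senescence, leaned strongly to root with TMM scaling: of 108 members 55 had a positive and 7 a negative difference, median 0.82 (35 and 25, median 0.22, with library totals), and 58 rose and 12 fell in root while 13 rose and 7 fell in leaf. NAC 61 (Gh_A07G1009) had 8.63, 11.1 and 17.3 CPM in AS roots, against 1.39, 1.10 and 1.65 CPM in CK roots. Leaf levels of Gh_A07G1009 were 7.42, 7.39 and 9.98 CPM in AS leaves, against 15.3, 16.8 and 17.7 CPM in CK leaves. The leaf call of Gh_A07G1009 was lost without AS leaf library 1 (log2 -0.93). Against the list's direction, NAC 83 (Gh_A03G1332) fell in root and rose in leaf (log2 changes of -0.82 ± 0.15 in root and 1.33 ± 0.15 in leaf). Of 121 MYB factors 46 had a positive and 15 a negative difference, median 0.42 (23 and 32, median -0.18, with library totals), and Myb domain protein 14 (Gh_A10G1002) rose in leaf (3.54, 3.30 and 4.43 CPM in AS leaves, against 0.468, 0.480 and 0.471 CPM in CK leaves) with a root log2 change of 0.07, not called.

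Most genes of alternative respiration rose in root. Alternative oxidases and type II dehydrogenases carry electrons past the proton-pumping complexes of mitochondria. Of 18 members 9 had a positive and 3 a negative difference, median 0.91 (8 and 4, median 0.30, with library totals), and 12 rose and 3 fell in root while 9 rose and 1 fell in leaf. Alternative oxidase 2 (Gh_A03G1527) had 208, 202 and 319.9 CPM in AS roots, against 4.01, 5.64 and 3.43 CPM in CK roots. Leaf levels of Gh_A03G1527 were 30.7, 23.6 and 27.5 CPM in AS leaves, against 24.5, 24.1 and 22.6 CPM in CK leaves. Root levels rose in every library while the leaf log2 change of 0.20 was not called (log2 difference 5.60 ± 0.31, edgeR adjusted p = 2.51e-06). Fermentation and low-oxygen genes had 38 members, and 10 had a positive and 7 a negative difference, median 0.32 (4 and 13, median -0.29, with library totals), or 4 negative without CK root library 1 and 6 positive without CK leaf library 3, AS root library 2 or AS leaf library 3. Haemoglobin 2 (Gh_A01G2084) fell in root (log2 -2.93), and a hypoxia-responsive gene (Gh_A13G1538) rose in both organs (log2 changes of 3.08 ± 0.20 in root and 1.04 ± 0.20 in leaf).

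Nitrogen, sulfur and phosphate genes rose in both organs more often than they fell with TMM scaling. Of 51 nitrate and ammonium genes 23 rose and 8 fell in root while 9 rose and 5 fell in leaf, with a root median of 0.44 (-0.05 with library totals), and 18 had a positive and 7 a negative difference, median 0.66 (9 and 11, median 0.05, with library totals). NADH-dependent glutamate synthase 1 (Gh_D12G2422), which builds glutamate from ammonium bound in glutamine, had 1518, 1592 and 1483 CPM in AS roots, against 128, 155 and 158 CPM in CK roots. Leaf levels of Gh_D12G2422 were 176, 164 and 186 CPM in AS leaves, against 97.3, 90.3 and 97.7 CPM in CK leaves. It rose in both organs and further in root, with a log2 difference of 2.50 ± 0.22 (edgeR adjusted p = 2.13e-05). Of 77 phosphate starvation genes 43 rose and 14 fell in root while 21 rose and 2 fell in leaf, and 18 had a positive and 6 a negative difference, median 0.37 (7 and 28, median -0.22, with library totals), or 29 positive without CK root library 3 and 3 negative without CK leaf library 1 or AS leaf library 1. Phosphate transporter 3;2 (Gh_A07G0413), a carrier of the mitochondrial type, rose by log2 changes of 4.38 ± 0.21 in root and 2.01 ± 0.20 in leaf.

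Of 40 sulfate genes 19 rose and 8 fell in root while 18 rose and 2 fell in leaf, the medians were 0.34 in root (-0.15 with library totals) and 0.44 in leaf, and 4 had a positive and 10 a negative difference, median -0.13 (3 and 23, median -0.75, with library totals), or 9 positive without CK root library 1. Serine acetyltransferase 2;2 (Gh_A13G1132), which makes the precursor of cysteine, had 6.34, 4.17 and 7.55 CPM in AS roots, against 0.518, 0.234 and 0.303 CPM in CK roots, and a leaf log2 change of 0.93, not called. Cysteine synthase C1 (Gh_A11G0809), which in mitochondria uses cysteine to remove cyanide, fell in root (log2 -2.63). Glutathione S-transferases, enzymes that couple glutathione to reactive compounds, numbered 79, and 36 rose and 23 fell in root while 29 rose and 3 fell in leaf, while 13 had a positive and 25 a negative difference, median -0.20 (6 and 41, median -0.82, with library totals), or 8 positive without CK leaf library 2. The tau class held both directions, with log2 changes of 2.94 ± 0.15 in root and -0.12 ± 0.14 in leaf for glutathione S-transferase TAU 16 (Gh_A04G0830) and log2 changes of -1.67 ± 0.15 in root and 0.76 ± 0.15 in leaf for tau 7 (Gh_A11G2032). The iron list, whose match also took in zinc transporters, had 47 members, and 7 had a positive and 18 a negative difference, median -0.43 (3 and 26, median -1.04, with library totals). Within it zinc transporter 4 (Gh_A05G0327) rose in leaf (36.7, 8.67 and 37.5 CPM in AS leaves, against 0.284, 0.261 and 0.152 CPM in CK leaves), and its log2 difference of -8.07 ± 1.16 was -9.14 without AS root library 3.

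Lists of ion and water transport differed in their negative share, which was 45.2% for aquaporins, 30.9% for sugar transporters and 28.8% for sodium and potassium transport, and was nearer to the 18.7% of all tested genes for malate, citrate and anion efflux (26.0%) and proton pumps (21.0%). With library totals these shares were 50.0%, 58.2%, 53.0%, 24 of 50 genes and 66.7%, against 46.1%. Of the members, 10 of the 55 sugar transporters, 9 of the 66 sodium and potassium genes and 5 of the 50 efflux genes passed the filter in root through CK alone. So did 5 of the 105 proton pump genes and 3 of the 42 aquaporins, against 1681 of the 33591 tested genes. Such genes had to be lower in AS roots in FPKM. What part such genes had in the negative shares was not tested, and the shares are not read as a direction of the lists. Aquaporins, the water channels, had 42 tested members, and 7 had a positive and 19 a negative difference, median -0.95 (5 and 21, median -1.56, with library totals). Plasma membrane intrinsic protein 1;4 (Gh_A10G2089) had 25.2, 18.8 and 10.4 CPM in AS roots, against 70.2, 109 and 61.9 CPM in CK roots. Leaf levels of Gh_A10G2089 were 13.3, 10.2 and 7.71 CPM in AS leaves, against 4.43, 4.83 and 4.81 CPM in CK leaves. It fell in root and rose in leaf (log2 difference -3.30 ± 0.43, edgeR adjusted p = 2.03e-04), while NOD26-like intrinsic protein 1;2 (Gh_D10G0313), of another aquaporin subfamily, rose in root and fell in leaf (log2 changes of 3.48 ± 0.25 in root and -0.70 ± 0.21 in leaf). The leaf call of Gh_A10G2089 was lost without AS leaf library 1 or CK leaf library 1, 2 or 3 (log2 0.94 to 1.18 in those fits), and that of Gh_D10G0313 was lost without AS leaf library 1 or 3 or CK leaf library 2 or 3 (log2 -0.68 to -0.58 in those fits). Proton pumps of the plasma membrane and vacuole had 105 members, and 7 had a positive and 22 a negative difference, median -0.22 (3 and 70, median -0.83, with library totals), or 12 positive without CK root library 1 and 14 negative without AS leaf library 1 or 3. The proton-pumping pyrophosphatase gene Gh_D08G2187 had 4497, 5011 and 4483 CPM in AS roots, against 1256, 1078 and 1506 CPM in CK roots, with a leaf log2 change of -0.28, not called.

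Sodium and potassium transport had 66 members, and 8 had a positive and 19 a negative difference, median -0.28 (2 and 35, median -0.89, with library totals), the positive count lying between 4 and 5 without CK root library 2, CK leaf library 2 or 3, AS root library 1 or AS leaf library 1 and reaching 14 without AS root library 3. A sodium:hydrogen antiporter 1 gene (Gh_A03G1643), of the type that loads sodium into the vacuole, fell in root (1.16, 1.22 and 1.31 CPM in AS roots, against 8.65, 5.01 and 4.67 CPM in CK roots), with a leaf log2 change of 0.16, not called. STELAR K+ outward rectifier (Gh_D05G1041), in Arabidopsis the channel that releases potassium into the xylem, rose in root, with 788, 641 and 307 CPM in AS roots, against 65.7, 122 and 165 CPM in CK roots. Of 50 malate, citrate and anion efflux genes 11 had a positive and 13 a negative difference, median -0.23 (8 and 24, median -0.85, with library totals). The tonoplast dicarboxylate transporter (Gh_A06G1962), which moves malate across the vacuolar membrane, had 817, 519 and 405 CPM in AS roots, against 46.7, 71.5 and 91.3 CPM in CK roots. Leaf levels of Gh_A06G1962 were 79.0, 75.0 and 61.5 CPM in AS leaves, against 144, 155 and 138 CPM in CK leaves. It rose in root and fell in leaf, with a log2 difference of 4.07 ± 0.40 (edgeR adjusted p = 3.86e-05). For Gh_A06G1962 the leaf call was lost without AS leaf library 1, 2 or 3 or CK leaf library 1, 2 or 3 (log2 -1.09 to -0.92 in those fits). Of 55 sugar transporters 7 had a positive and 17 a negative difference, median -0.51 (5 and 32, median -1.12, with library totals), or 13 positive without AS root library 3, and sugar transporter 1 (Gh_A05G1416) rose in root (log2 3.25).

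**Figure D3:**
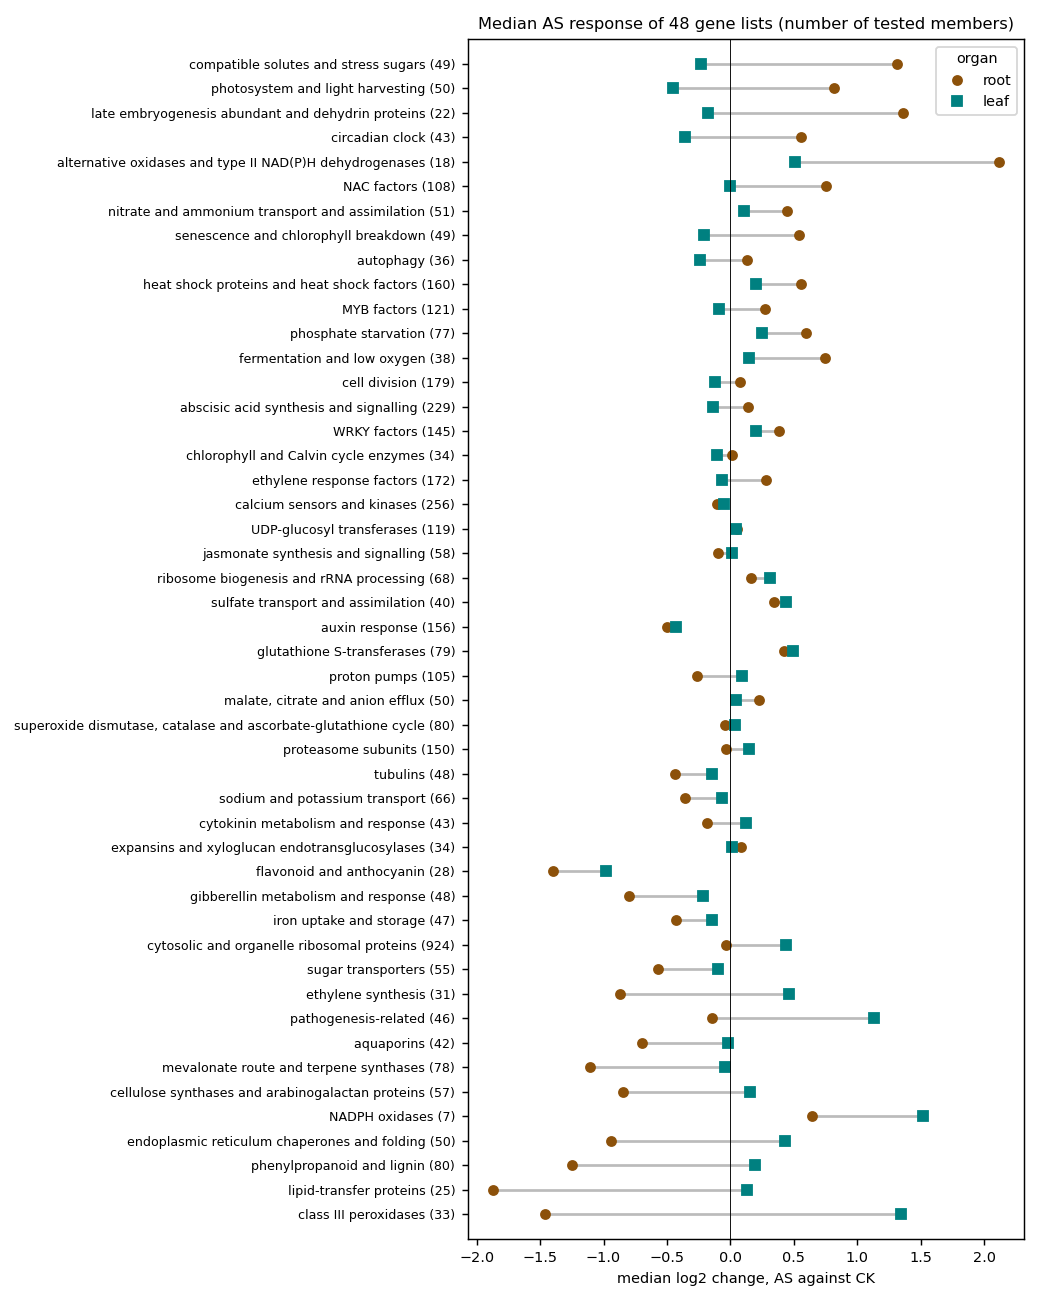
Median log2 change of AS against CK over the tested members of each of the 48 gene lists, circles for root and squares for leaf, ordered from the most positive difference at the top to the most negative at the bottom, with TMM scaling. Compatible solutes (1.31 in root, -0.23 in leaf) lie among the top lists and class III peroxidases (-1.46 in root, 1.35 in leaf) at the bottom; with library totals the median of all genes shifts by -0.48 in root and 0.12 in leaf, and the medians of several middle lists change sign.

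**Figure D4:**
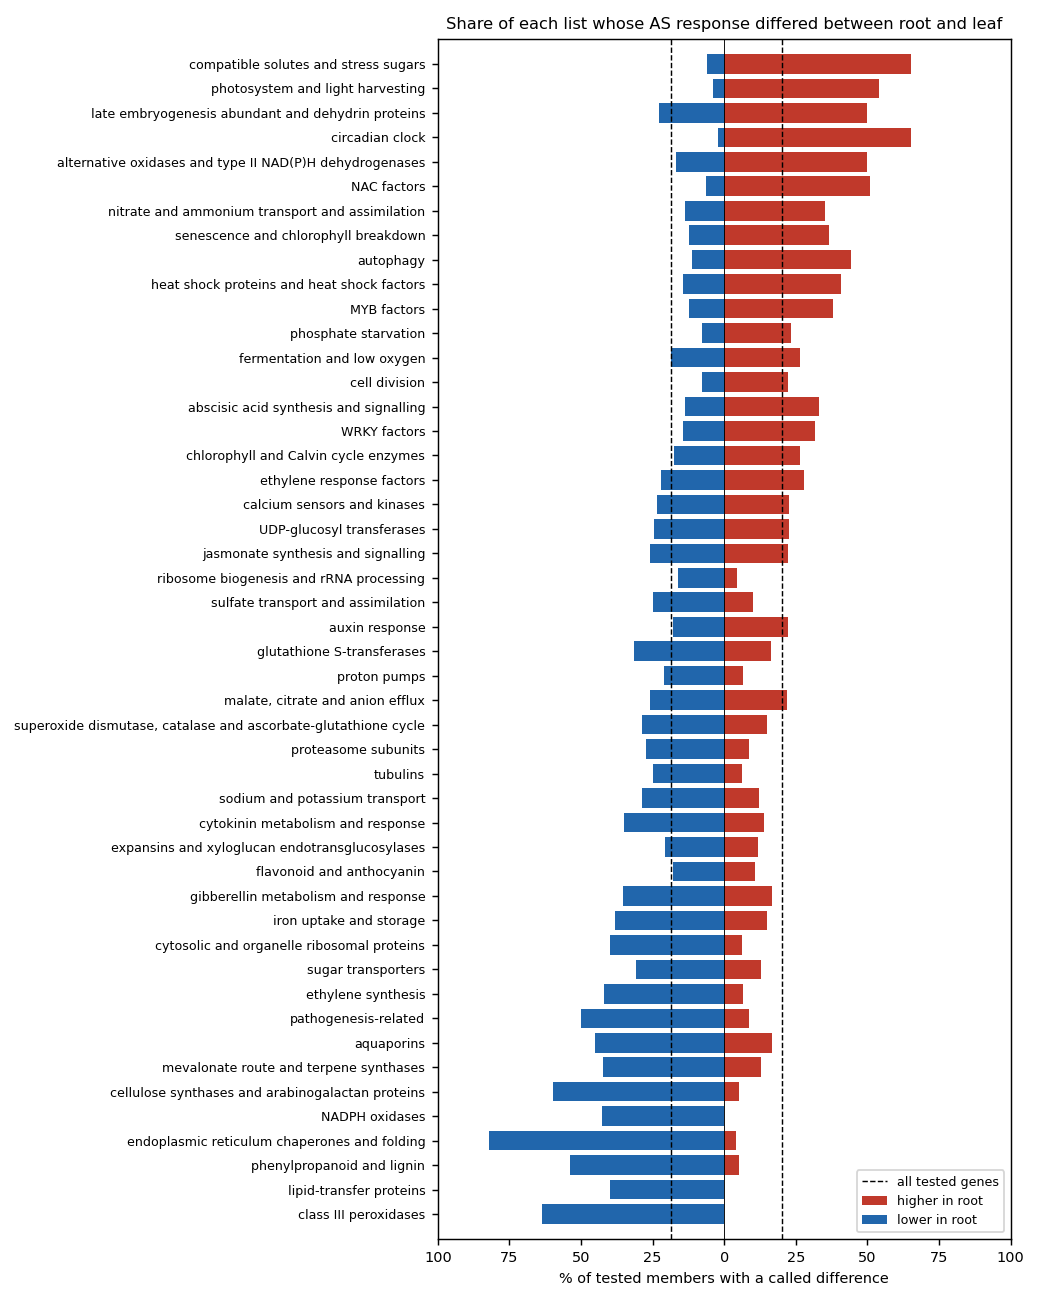
Share of each list's tested members with a called difference, bars to the right for a higher response in root and bars to the left for a lower one, in percent, with TMM scaling. Dashed lines mark the shares over all tested genes, 20.1% and 18.7%; with library totals the negative share grows in most lists.

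A response was called root-alone when the difference was called, the gene changed by at least 2-fold in root and the 95% interval of its leaf change lay within 2-fold either way. This held for 4054 genes (12.1%), 1956 upward (5.82%) and 2098 downward (6.25%). With library totals the split was 873 upward and 5628 downward, and 2680 of the 4054 stayed root-alone. Of the 4054 genes, 667 had passed the filter through 1 group of an organ. The reverse class, leaf-alone, held 258 genes (0.768%), 176 upward (0.524%) and 82 downward (0.244%), against 290 upward and 41 downward with library totals, which kept 93 of the 258. A small change in the other organ is allowed by this rule, and 176 of the root-alone genes were also called in leaf and 22 of the leaf-alone genes in root, some of them in the opposite direction.

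Of the 6 root-alone genes with the largest positive difference, 4 were chaperones of the heat shock type. An HSP20-like gene (Gh_A08G1442, A08:90323315-90323794, plus strand) had 36.2, 58.8 and 66.3 CPM in AS roots, against 0.359, 0.305 and 0.379 CPM in CK roots. Leaf levels of Gh_A08G1442 were 0.719, 1.001 and 0.625 CPM in AS leaves, against 0.852, 0.617 and 0.582 CPM in CK leaves. Leaves of both groups overlapped, with a leaf interval of -0.39 to 0.79, and the log2 difference was 7.06 ± 0.40 (edgeR adjusted p = 2.51e-06). Heat shock protein 21 (Gh_A04G1193, A04:62112112-62113236, minus strand), a small chaperone of plastids, had 168, 314 and 246 CPM in AS roots, against 2.73, 1.29 and 2.90 CPM in CK roots. Leaf levels of Gh_A04G1193 were 16.01, 16.4 and 19.7 CPM in AS leaves, against 20.1, 15.3 and 15.4 CPM in CK leaves, overlapping.

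Heat shock protein 101 (Gh_A07G0622, A07:8671148-8674166, minus strand), which pulls aggregated proteins apart, rose in root with 256, 474 and 332 CPM in AS roots, against 5.40, 2.19 and 5.42 CPM in CK roots. Its leaf interval of -0.94 to 0.33 was close to the bound, and the class was lost without any 1 of AS leaf libraries 1, 2 and 3 and CK leaf libraries 2 and 3. A second HSP20-like gene (Gh_Sca048607G01) had a log2 difference of 6.65 ± 0.53, or 7.27 without CK root library 3, and a second alternative oxidase 2 gene (Gh_Sca047319G01) had 58.3, 49.8 and 59.4 CPM in AS roots, against 0.757, 0.395 and 0.341 CPM in CK roots. A class I glutamine amidotransferase-like gene (Gh_D04G1542) had a log2 difference of 6.28 ± 0.46 (edgeR adjusted p = 6.52e-06). The class of 3 of these genes was lost without 1 leaf library, AS leaf 1 for Gh_D04G1542, CK leaf 1 for Gh_A08G1442 and AS leaf 1, CK leaf 1 or CK leaf 2 for Gh_Sca048607G01. By description, picked after the values were seen, root-alone rises took in 28 of the 143 protein phosphatases 2C, 11 of 29 A20/AN1-like zinc finger genes, 8 of 19 ubiquitin 8 genes, 8 of 43 HSP20-like genes, 5 of 8 mitochondrial HSO70 2 genes and 5 of 8 scarecrow-like 5 genes, against 5.82% of all tested genes. With library totals 15, 3, 4, 5, 0 and 4 of these genes stayed root-alone, in the same order of families. Of the 12 genes named as root-alone, Gh_A08G1442 and Gh_Sca048607G01 passed the filter in root through AS alone. Gh_A13G1719, Gh_D06G2148, Gh_D08G0480 and Gh_A10G1726 passed in root through CK alone. The root separation of all of these genes was required in FPKM.

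The 6 root-alone genes with the largest negative difference were of mixed function. Cytochrome P450 83B1 (Gh_A10G1726, A10:91212815-91222780, plus strand), named for an Arabidopsis enzyme of indole glucosinolate synthesis, had 0.458, 0.694 and 0.510 CPM in AS roots, against 9.82, 4.38 and 3.79 CPM in CK roots. Leaf levels of Gh_A10G1726 were 40.8, 35.3 and 35.2 CPM in AS leaves, against 31.3, 30.1 and 33.3 CPM in CK leaves. Every AS root lay below every CK root, and the AS leaves lay a little above the CK leaves (log2 difference -3.66 ± 0.44, edgeR adjusted p = 1.22e-04). An aspartyl protease gene (Gh_A08G0343) had 2.48, 2.86 and 3.69 CPM in AS roots, against 49.4, 31.1 and 23.1 CPM in CK roots. Leaf levels of Gh_A08G0343 were 117, 123 and 121 CPM in AS leaves, against 101, 108 and 109 CPM in CK leaves, the AS leaves a little above the CK leaves, and its leaf interval was -0.31 to 0.67.

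A heavy metal transport and detoxification gene (Gh_D11G2705) and TRICHOME BIREFRINGENCE-LIKE 38 (Gh_D06G2148), of a family that acetylates wall polysaccharides, had log2 differences of -3.78 ± 0.49 and -4.36 ± 0.65, the second being -3.56 without CK root library 1. Cytidine deaminase 1 (Gh_A13G1719) had 0.0872, 0.0868 and 0.0971 CPM in AS roots, against 3.95, 1.33 and 2.24 CPM in CK roots, and a leucine-rich repeat kinase gene (Gh_D08G0480) had 0.654, 0.803 and 2.16 CPM in AS roots, against 20.2, 25.05 and 10.7 CPM in CK roots. Their log2 differences were -4.63 ± 0.61 and -3.87 ± 0.56, the second -4.57 without AS root library 3. The class depended on the leaf libraries: it was lost for Gh_A13G1719 without AS leaf 2, CK leaf 1 or CK leaf 3, for Gh_D06G2148 without AS leaf 2 or CK leaf 1, and for Gh_D08G0480 without AS leaf 1 or 3 or CK leaf 1 or 2.

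Among the 6 named leaf-alone genes that rose were 2 peroxidases and an NADPH oxidase. Peroxidase 2 (Gh_A08G2028, A08:101461027-101462441, minus strand) had 92.9, 91.1 and 115 CPM in AS roots, against 118, 121 and 115 CPM in CK roots. Leaf levels of Gh_A08G2028 were 73.6, 74.2 and 108 CPM in AS leaves, against 3.91, 5.004 and 6.68 CPM in CK leaves. Levels in AS leaves came near the root levels, and the log2 difference was -4.28 ± 0.29 (edgeR adjusted p = 6.00e-06). A further peroxidase (Gh_D09G1420, D09:41767263-41769101, plus strand) had log2 changes of 0.26 ± 0.21 in root and 3.29 ± 0.23 in leaf. Respiratory burst oxidase homolog B (Gh_D11G2743, D11:56977773-56982441, plus strand) had 33.9, 42.1 and 34.6 CPM in AS roots, against 49.7, 33.2 and 48.5 CPM in CK roots, AS and CK overlapping. Leaf levels of Gh_D11G2743 were 4.96, 2.69 and 4.63 CPM in AS leaves, against 0.468, 0.151 and 0.416 CPM in CK leaves, and the gene passed the filter in leaf through AS alone.

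Chitinase A (Gh_D12G2670, scaffold4576_D12:56197-57093, plus strand), which breaks down chitin of fungal walls, had 5.84, 4.51 and 3.86 CPM in AS roots, against 3.63, 5.86 and 6.33 CPM in CK roots, overlapping. Leaf levels of Gh_D12G2670 were 176, 118 and 155 CPM in AS leaves, against 8.53, 19.5 and 25.3 CPM in CK leaves, and the log2 difference was -3.23 ± 0.49 (edgeR adjusted p = 4.63e-04). An amino acid transporter gene (Gh_A05G2531) and a major facilitator gene (Gh_D08G0875) had log2 differences of -3.03 ± 0.29 and -3.17 ± 0.28. The root log2 change of Gh_D08G0875, -0.50, was called too, a call lost without AS root library 1, 2 or 3, CK root library 1 or 2, AS leaf library 3 or CK leaf library 2 or 3 (log2 -0.55 to -0.32 in those fits). With library totals the leaf-alone class was lost for Gh_A08G2028, Gh_D11G2743, Gh_D12G2670 and Gh_D08G0875. The last 3 also lost it without 1 root library, AS root 2 or CK root 2 for Gh_D11G2743, AS root 1, AS root 2 or CK root 1 for Gh_D12G2670 and AS root 1, AS root 2 or CK root 3 for Gh_D08G0875.

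Of the 6 named leaf-alone genes that fell, 2 encode linker histones and 1 an auxin repressor. Linker histone H1-3 is induced by drought in Arabidopsis, and Gh_A11G1632 (A11:24300925-24301563, plus strand) had 337, 448 and 469.9 CPM in AS roots, against 334, 261 and 309.9 CPM in CK roots. Leaf levels of Gh_A11G1632 were 71.9, 72.2 and 66.0 CPM in AS leaves, against 217, 221 and 178 CPM in CK leaves. Every AS leaf lay far below every CK leaf. Every AS root also lay above every CK root, by a log2 change of 0.47 that was called, so the gene met the rule for opposite responses too. Its root call was lost without AS root library 2 or 3 or CK root library 2 or 3 (log2 0.39 to 0.49 in those fits), and a fit of all 18 libraries did not keep it leaf-alone. The other linker histone gene, Gh_D11G1792, had log2 changes of 0.37 in root, not called, and -1.51 in leaf. Indole-3-acetic acid inducible 11 (Gh_D08G2060), a repressor of auxin response, had a root log2 change of 0.45, also called and lost without AS root library 2 or CK root library 1 or 2 (log2 0.36 to 0.49 in those fits), and leaf levels of 1.81, 2.65 and 2.47 CPM in AS leaves, against 9.28, 7.98 and 6.72 CPM in CK leaves. The CHY-type zinc finger genes Gh_A03G0238 and Gh_D03G1332, on an A and a D chromosome, had log2 differences of 1.96 ± 0.29 and 1.86 ± 0.25. A serine-rich protein gene (Gh_A05G0056) had 3.07, 2.78 and 3.15 CPM in AS leaves, against 11.8, 12.8 and 10.7 CPM in CK leaves, a class lost with library totals.

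**Figure D5:**
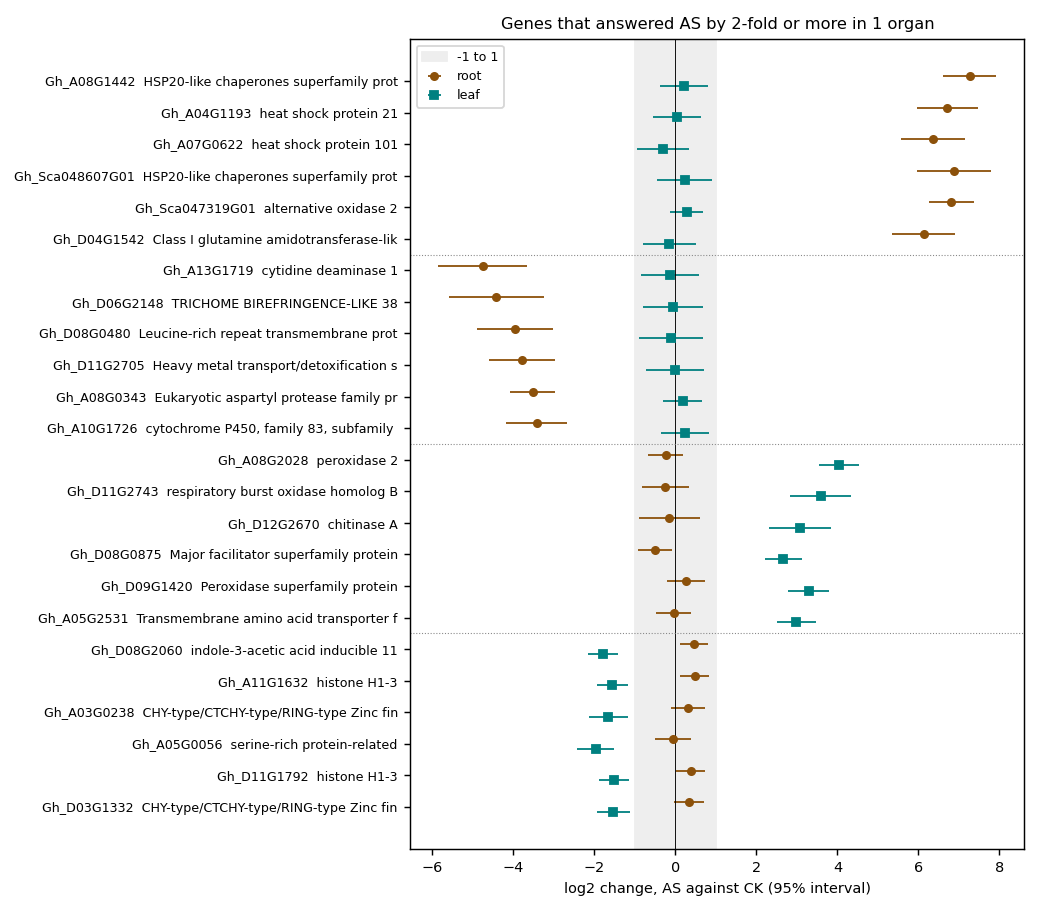
Log2 change of AS against CK with its 95% interval for the 24 genes named as root-alone or leaf-alone, circles for root and squares for leaf, against a gray band of 2-fold either way. From the top the blocks of 6 genes are root-alone higher, root-alone lower, leaf-alone higher and leaf-alone lower; in each block the intervals of the other organ lie within the band.

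For 19 tested genes a group stood at 0 counts in all 3 libraries, and 16 of them had a called difference; their folds are lower bounds against a floor of 3 counts per library. A protein kinase gene (Gh_D07G1943) had 14.0, 10.9 and 4.90 CPM in AS roots, against 0, 0 and 0 CPM in CK roots, at least 175-fold higher in AS roots, and its leaf values were 6.91, 6.27 and 8.03 CPM in AS leaves, against 7.43, 8.75 and 8.20 CPM in CK leaves. A peptidase M20 gene (Gh_A03G1450) had 0, 0 and 0 CPM in AS roots, against 2.19, 1.20 and 1.06 CPM in CK roots, at least 21.9-fold lower in AS roots, and an MLO family gene (Gh_A06G1936), of a membrane protein family known for powdery mildew susceptibility, was at least 11.6-fold lower there. A UDP-glycosyltransferase gene (Gh_A12G2647) went with leaf, at 2.75, 6.13 and 1.95 CPM in AS leaves, against 0, 0 and 0 CPM in CK leaves, at least 81.6-fold higher in AS leaves. Each of these 4 genes was measured in the other groups.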

How the data were processed

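Poly(A) RNA was sequenced in pairs on an Illumina instrument, per the labels' protocols. The authors deposited a table of raw read counts per gene and, for each gene and library, an FPKM value. The submitters' processing notes name HISAT and StringTie, and neither their versions nor the genome build and strandedness are given in the sources used here. Deposited counts between 1 and 20 were even for 56.1 to 59.8% of values by library, and the cause was not tested. FPKM stood at its lowest value, 1e-04, in 302270 entries.

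The count test was edgeR 4.0.16 (R 4.3.3) quasi-likelihood on the 12 AS and CK libraries together, with TMM scaling, 1 coefficient per group and Benjamini-Hochberg adjustment over all 33591 tested genes, called at an adjusted p under 0.05. The 6 SAS libraries entered 1 alternative. CPM is the count divided by the library total and the TMM factor, times 1e+06, and standard errors and 95% intervals are of the fitted log2 changes. A gene was root-alone when its difference was called, its root change was called and at least 2-fold, and the 95% interval of its leaf change lay within 2-fold either way, and leaf-alone in the mirror case. Where a group had no count, folds were bounded with a floor of 3 counts per library, which covers counting error only. The test was tried on simulated data before use.

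Named genes had a deposited description, a mean of at least 5 CPM in at least 1 of the 4 groups and at least 1 count in each group. Of these, 10 opposite genes per direction were taken whose libraries did not overlap in either organ, ranked by the smaller of both changes, and 6 root-alone or leaf-alone genes per direction, ranked by the difference. Each list gave up to 2 members per direction with the smallest adjusted p, and 4 genes with an empty group are named for theirs. The 48 gene lists were matched to the deposited descriptions by text. The members and lists were chosen with earlier results of these data known. The alternatives were other scalings, DESeq2 1.42.0, limma 3.58.1 on log2(FPKM + 1) and log2(FPKM + 0.1), other filters and thresholds, the replicate block and leaving out each library. Library numbers were not treated as pairs in the main fit.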

Additional observations from a re-analysis of the deposited data

Results flagged for a closer look

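The AS response differed between root and leaf for 13013 of the 33591 tested genes, by the test of the difference itself, and 1061 genes changed in opposite directions. Library totals as the only scaling moved the opposite count to 1725. The genes below are those named above for opposite responses. They were picked for the largest changes among genes with separate libraries, so their sizes are large by choice.

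Among the genes that rose in root and fell in leaf, the log2 difference was 7.20 for the BTB and TAZ domain protein Gh_D07G0549, 4.67 for Gh_D01G1663 and 4.84 for Gh_A01G1425, the pair of ACT-like tyrosine kinases. It was 5.02 for Gh_D02G1435, 3.61 for Gh_D04G0278, 3.49 for Gh_D02G0555 and 3.26 for Gh_D04G1383. It was 5.18 for Gh_A13G1088, 3.78 for Gh_D05G0276 and 3.69 for Gh_A02G0495.

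Among the genes that fell in root and rose in leaf, the log2 difference was -11.83 for Gh_A04G0639, -10.19 for Gh_D04G1101, -8.97 for Gh_D03G0709 and -6.85 for Gh_A08G1806. It was -8.79 for Gh_D12G0853, -7.28 for Gh_D12G2476, -6.48 for Gh_A09G0635 and -5.97 for Gh_D08G2296. It was -5.67 for Gh_D12G0586 and -5.49 for Gh_D06G2112.

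The 6 SAS libraries were outside the comparison. In a fit of all 18 libraries the SAS response against CK differed between root and leaf for 16232 genes (48.3% of those tested), 2439 of them opposite, and the AS response in that fit differed for 12143. Both share the CK libraries.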

How the results depend on the processing

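With library totals as the only scaling 1725 genes were opposite and 6501 root-alone. With limma on log2(FPKM + 1) 1987 were opposite, and on log2(FPKM + 0.1) 1729 were opposite and 6321 root-alone; neither fit uses TMM. The difference for Gh_A02G1047, a nucleolar GTP-binding protein, reversed under these, to -0.074 with library totals, -0.087 with log2(FPKM + 1) and -0.092 with log2(FPKM + 0.1). Without a filter 626 genes were opposite. Requiring 5 FPKM, which left 18122 of the tested genes, gave 8533 differences, 10520 root calls and 2193 root-alone genes. At an adjusted p under 0.01 there were 7582 differences, 1817 leaf calls, 250 opposite and 160 leaf-alone genes, and a change of at least 2-fold in both organs also left 250 opposite genes. The cause was not tested for any of these. The same numbers across groups correlated between -0.19 and 0.12 in their deviations. They are not treated as pairs, although 3 libraries a group cannot exclude pairing. A replicate block within each organ gave 3338 leaf calls and 618 opposite genes, and a block shared by both organs gave 4236 and 846. Leaving out 1 library at a time gave 10749 to 14784 differences, 15277 to 18069 root calls, 2076 to 6855 leaf calls, 391 to 1665 opposite, 3216 to 4995 root-alone and 182 to 351 leaf-alone genes. DESeq2, TMM within each organ and the fit of 18 libraries moved none of these 6 counts by over 1.5 times.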
